A study of Mus musculus with 2 samples.

Results

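The stearoyl-CoA desaturases of the mouse are encoded by 4 paralogous genes, *Scd1*, *Scd2*, *Scd3* and *Scd4*, and their RNA was followed in the livers of high-fat diet (HFD)-fed mice. The genes were taken by symbol from the deposited transcript table, and the family was chosen by the measured counts of *Scd3*, which had 0 in 1 of the 2 libraries. The levels of the family are therefore given as a description. Each symbol had 1 transcript, so the family was 4 of 45777 genes and 4 of 129299 transcripts. All 4 passed the filter of at least 10 counts in at least 1 library, as did 15857 genes in all.

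Livers came from C57BL/6 mice, named C57BL/6 N in the paper. The mice were 7 weeks old when the HFD began and stayed on it for 18 weeks. At week 13, the animals received an adeno-associated virus (AAV) through the retro-orbital route. The virus carried either GFP, for the control group AAV-GFP, or the long noncoding RNA *Wee1-AS*, an antisense RNA of the *Wee1* locus, for the group AAV-*Wee1-AS*. The AAV-*Wee1-AS* vector used the CMV promoter, which is not specific to hepatocytes. One library of poly-A RNA per group was analysed, and how many mice stand behind each library is not given in the sources used here. The level of *Wee1-AS* itself was not analysed here. The 2 libraries show how these RNA samples differed. A difference between treatments cannot be told apart from one between animals or between libraries, and no P value was computed.

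Stearoyl-CoA desaturase is an enzyme of the endoplasmic reticulum that places a double bond at the ninth carbon of saturated acyl-CoA. It turns stearoyl-CoA into oleoyl-CoA and palmitoyl-CoA into palmitoleoyl-CoA, the main monounsaturated fatty acids of triglycerides, cholesterol esters and membrane lipids. Electrons reach it from NADH through cytochrome b5 reductase and cytochrome b5. In mice, *Scd1* is the main form of liver and adipose tissue, *Scd2* is best known from the brain, *Scd3* from the sebaceous and Harderian glands, and *Scd4* from the heart. In the liver, transcription of *Scd1* is driven by SREBP-1c, the liver X receptor and ChREBP, the factors that also drive fatty acid synthesis.

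The 4 genes lie side by side on chromosome 19 within 204 kb of the genome build mm10. *Scd3* (NCBI gene 30049, transcript NM_024450) spans chr19:44203288-44244016, *Scd2* (20250, NM_009128) chr19:44293676-44306864 and *Scd4* (329065, NM_183216) chr19:44333326-44346743, all on the plus strand. *Scd1* (20249, NM_009127) spans chr19:44394450-44407709 on the minus strand. In the GENCODE M21 annotation of the same build, each gene has 6 exons. The coding parts are close in length, with 1065 bases in *Scd1*, 1074 in *Scd2*, 1077 in *Scd3* and 1059 in *Scd4*. The 3′ untranslated parts hold 3467 bases in *Scd1*, 3667 in *Scd2*, 2160 in *Scd3* and 1847 in *Scd4*.

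How alike the paralogs are matters here, because a read of 100 bases that fits 2 genes equally well cannot be placed by its sequence. The 2 stretches of 120 bases below, both from the coding part, show a like and an unlike part. The first lies in exon 4, in the middle of the longest run that *Scd3* shares unchanged with *Scd1*. It is printed 5′ to 3′ along each transcript, and capitals mark bases that differ from *Scd3*.
Scd3: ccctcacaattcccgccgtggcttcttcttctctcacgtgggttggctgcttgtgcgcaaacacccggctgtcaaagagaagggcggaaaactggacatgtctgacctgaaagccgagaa
Scd1: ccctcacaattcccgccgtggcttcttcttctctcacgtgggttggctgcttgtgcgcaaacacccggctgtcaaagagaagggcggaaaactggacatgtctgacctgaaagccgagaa
Scd2: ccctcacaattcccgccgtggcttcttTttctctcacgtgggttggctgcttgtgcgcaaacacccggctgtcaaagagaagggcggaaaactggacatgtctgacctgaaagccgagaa
Scd4: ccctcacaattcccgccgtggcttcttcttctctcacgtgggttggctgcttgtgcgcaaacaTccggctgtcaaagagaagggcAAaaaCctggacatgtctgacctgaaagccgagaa
In *Scd3*, it lies at chr19:44235836-44235955 on the plus strand. The matching bases lie at chr19:44401714-44401833 on the minus strand for *Scd1*, and at chr19:44299674-44299793 for *Scd2* and chr19:44338975-44339094 for *Scd4* on the plus strand. *Scd1* differed from *Scd3* at 0 of the 120 bases, *Scd2* at 1 and *Scd4* at 4. A read from within this stretch fits *Scd1* and *Scd3* alike.

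The second stretch lies in exon 5 and is the coding stretch, aligned without gaps, in which *Scd3* and *Scd1* differ at the most bases. Capitals again mark bases that differ from *Scd3*.
Scd3: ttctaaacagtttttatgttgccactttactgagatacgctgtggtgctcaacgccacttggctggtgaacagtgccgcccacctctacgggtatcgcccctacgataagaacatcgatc
Scd1: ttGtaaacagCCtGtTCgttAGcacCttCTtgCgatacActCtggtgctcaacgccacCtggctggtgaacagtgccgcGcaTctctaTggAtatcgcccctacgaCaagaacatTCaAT
Scd2: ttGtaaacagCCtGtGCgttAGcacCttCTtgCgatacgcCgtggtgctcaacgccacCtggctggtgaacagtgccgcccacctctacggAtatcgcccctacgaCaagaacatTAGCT
Scd4: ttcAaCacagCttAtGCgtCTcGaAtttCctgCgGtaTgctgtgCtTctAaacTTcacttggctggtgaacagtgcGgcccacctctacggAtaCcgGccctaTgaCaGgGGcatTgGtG
In *Scd3*, it lies at chr19:44238453-44238572. Its counterparts are chr19:44400178-44400297 in *Scd1*, on the minus strand, chr19:44301289-44301408 in *Scd2* and chr19:44341298-44341417 in *Scd4*. Here *Scd1* differed from *Scd3* at 24 of the 120 bases, *Scd2* at 21 and *Scd4* at 31. A read of 100 bases from this stretch tells *Scd3* from its paralogs.

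Identity over the whole coding part was taken over all positions of the alignment, gaps included. *Scd3* was identical to *Scd1* at 90.4% of these positions (974 of 1077), to *Scd2* at 88.0% and to *Scd4* at 83.2%. *Scd1* and *Scd2* were identical at 89.6%. By this measure, *Scd1* is thus the paralog most like *Scd3*. Of the 3390 windows of 100 bases along the *Scd3* transcript, 86 (2.54%) occurred unchanged in *Scd1*, 26 in *Scd2* and 0 in *Scd4*. The longest run that *Scd3* shares unchanged with *Scd1* had 185 bases, across exons 4 and 5. Windows with up to 2 mismatches numbered 158 for *Scd1*, 171 for *Scd2* and 67 for *Scd4*, so by this limit *Scd2* came first. Windows with up to 5 mismatches numbered 501 for *Scd1*, 406 for *Scd2* and 214 for *Scd4*, and all of them lay wholly in the coding part. The 2061 windows after the coding part, 60.8% of all, had at least 50 mismatches to any ungapped window of the 3 paralogs. Most of the *Scd3* transcript thus differs from its paralogs over the length of a read. The unchanged windows form 1 run in the middle of the coding sequence, while windows with up to 5 mismatches also lie nearer to both of its ends. Reads from the unchanged run fit both genes, and how they were divided was not tested.

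**Figure D1:**
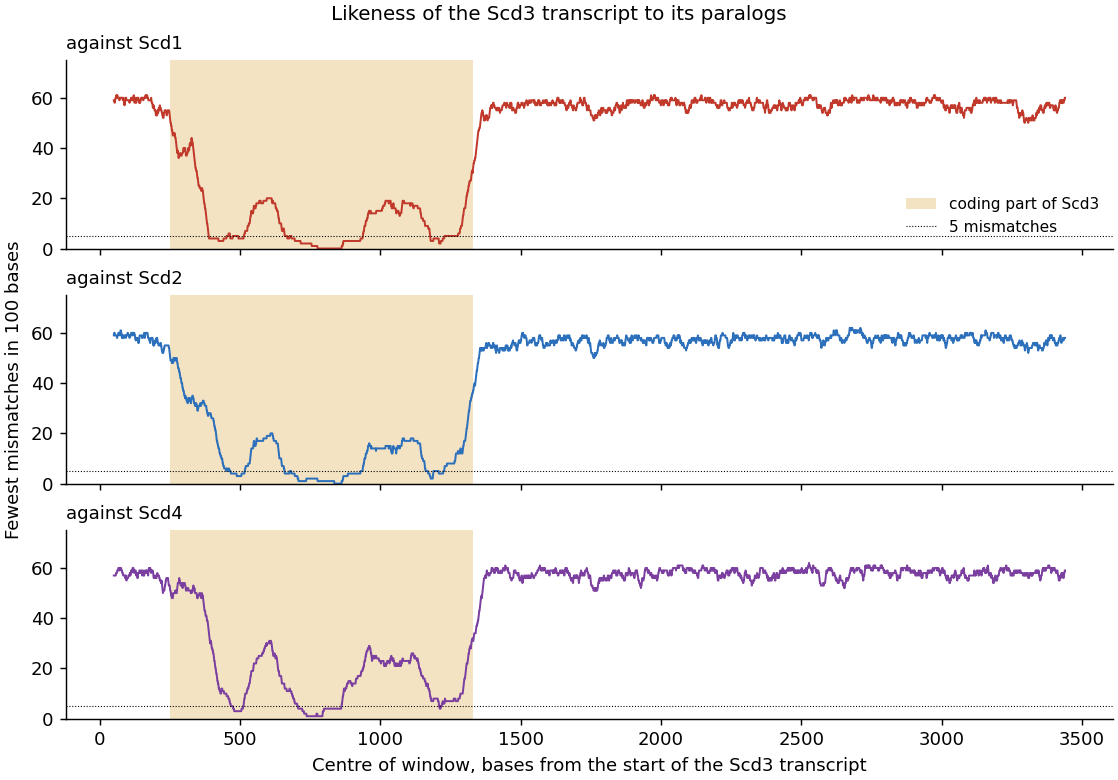
Fewest mismatches (y axis, bases of 100) between each 100-base window of the *Scd3* transcript and any window of *Scd1*, *Scd2* or *Scd4* (rows), plotted at the centre of the window in bases from the transcript start (x axis). Shading marks the coding part, and the dotted line marks 5 mismatches. The lines reach 0 for *Scd1* and *Scd2* near the middle of the coding part and stay at 50 or more after it.

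The deposited table held 55466182 estimated counts for the AAV-GFP library and 48079335 for the AAV-*Wee1-AS* library. The 20 most abundant genes took 24.0% and 24.2% of them. Log2 ratios set the AAV-*Wee1-AS* library over the AAV-GFP library after TMM scaling. Their median over all genes was -0.0020, with the middle 95% of genes between -1.81 and 2.53. Of the 15857 genes, 3572 (22.5%) had a ratio above 2 and 1337 (8.43%) a ratio below 0.5, so 31.0% were past 2-fold. With the trends described next removed, 1107 genes were above and 1279 below of 14995, so calls made that way have a smaller background. Across genes, the ratio fell with GC content (Spearman's rho = -0.67 over 14995 genes, which are not independent replicates) and increased with transcript length (rho = 0.35). The ratios of the family and of the pathway genes named below are therefore also given after both trends had been removed by lowess fits, wherever this changed the direction or the side of 2-fold. Intervals are exact 95% intervals that treat the estimated counts as if they were counts of reads. They cover counting error only and leave out error from how reads were divided among transcripts.

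*Scd1*, the liver form, was by far the most abundant paralog in both libraries, with 531673 estimated counts in AAV-GFP and 571011 in AAV-*Wee1-AS*. These are 0.959% and 1.19% of all counts. Per length, its level was 3337 TPM (transcript abundance per length, scaled to the same sum in each library) in AAV-GFP and 4229 TPM in AAV-*Wee1-AS*, rank 42 and 41 among all genes. The deposited FPKM values were 1707 and 2128. The scaled level was 1.30-fold higher in AAV-*Wee1-AS* (log2 ratio 0.38, interval 0.375 to 0.386), short of 2-fold, but the log2 ratio was -0.24 once the GC and length trends were removed. The ratio was higher than that of 62.4% of genes. The 1630 genes within 1 percentage point of the GC content of *Scd1* (47.1%) had a median log2 ratio of 0.46, and the 620 of these whose length was within 0.5 of its own on the log2 scale had one of 0.66. The ratio of *Scd1* thus lay below both medians, and whether its level was higher or lower in AAV-*Wee1-AS* depended on the trends.

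*Scd2*, the form known from brain, had 962 counts in AAV-GFP and 838 in AAV-*Wee1-AS*. Its level per length was 5.35 and 5.50 TPM. The log2 ratio was 0.08 (interval -0.06 to 0.21), and -0.28 with the trends removed. The interval held 0, and upper-quartile scaling, which moves all genes alike, put the ratio at -0.05 beside a median of -0.13 over all genes. Transcript levels of *Scd2* were 624 times lower per length than those of *Scd1* in AAV-GFP and 769 times lower in AAV-*Wee1-AS*.

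*Scd3* had 1464 estimated counts in AAV-GFP and 0 in AAV-*Wee1-AS*. Its level per length was 12.8 TPM in AAV-GFP, rank 4621 of all genes, and it was listed at 0 TPM and 0 FPKM in AAV-*Wee1-AS*. In the control, *Scd3* was thus the second paralog after *Scd1*, which stood 261 times higher. At an equal scaled level, 1208 counts would stand in the AAV-*Wee1-AS* library. With its 0 counts set to a floor of 3 in that library, *Scd3* was 403-fold lower (log2 ratio -8.65, and -8.76 with the trends removed). That bound rests on the floor chosen. The exact interval of its log2 ratio reached up to -8.35, a smaller difference, from counting error only. The 1676 genes within 1 percentage point of its GC content (49.3%) had a median log2 ratio of 0.08. The 0 is an estimate that the authors' processing gave to the transcript and not a count of reads placed on it. Whether *Scd3* was absent from this liver, or its reads were placed elsewhere, was not tested.

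*Scd4*, the form known from heart, was the least abundant in AAV-GFP, with 62 counts there and 68 in AAV-*Wee1-AS*. Its level per length was 0.608 and 0.791 TPM. The log2 ratio was 0.40 (interval -0.11 to 0.93), from counts so few that the interval held a ratio of 1. The trends removed, it was 0.27.

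The order of levels per length was therefore *Scd1*, *Scd3*, *Scd2*, *Scd4* in AAV-GFP and *Scd1*, *Scd2*, *Scd4* in AAV-*Wee1-AS*, with *Scd3* listed at 0. In each library, neighbours in this order stood more than 2-fold apart, although there is no replicate spread against which to set them. Of the 4 paralogs, 1 was past 2-fold, beside 31.0% of all genes. That 1 is the gene for which the family was picked, so nothing is read from this count.

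**Figure D2:**
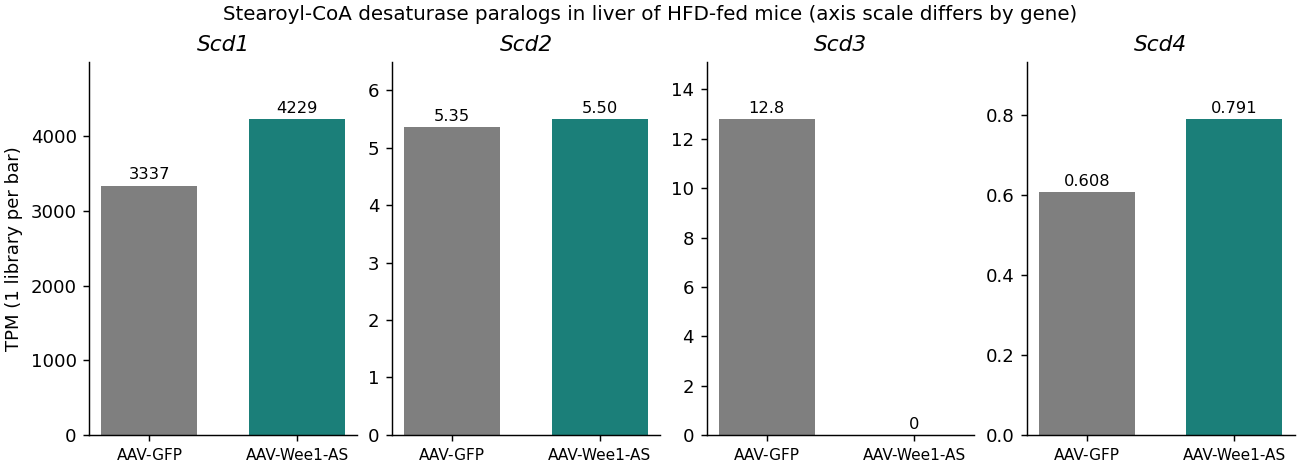
TPM (y axis, 1 scale per panel, starting at 0) of the 4 *Scd* paralogs in the AAV-GFP (grey) and AAV-*Wee1-AS* (green) libraries, 1 library per bar and so without error bars. *Scd3* has 12.8 TPM in AAV-GFP and 0 in AAV-*Wee1-AS*, whereas each of the other 3 stands above 0 in both.

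Sums over the family do not depend on how reads were divided among its members. The 4 paralogs together had 534161 counts in AAV-GFP and 571917 in AAV-*Wee1-AS*, a log2 ratio of 0.38 (interval 0.371 to 0.382) that became -0.24 with the trends removed. *Scd1* made up 99.5% of the family's counts in AAV-GFP and 99.8% in AAV-*Wee1-AS*, so the sum follows *Scd1*. *Scd3* made up 0.275% of the counts of *Scd1* and *Scd3* in AAV-GFP (interval 0.261% to 0.289%), or 0.382% of their TPM. In AAV-*Wee1-AS*, its share was 0 of 571011, which allows a share of up to 0.000525% at the floor of 3 counts, or 0.000646% by the exact interval. The sum of *Scd1* and *Scd3* differed by a log2 ratio of 0.38 (interval 0.371 to 0.382), also -0.24 with the trends removed. The counts of *Scd3* are too small a part of the pair for this sum to show where they went. Without *Scd1*, the other 3 paralogs had 2488 counts in AAV-GFP and 906 in AAV-*Wee1-AS*, a log2 ratio of -1.18 (interval -1.29 to -1.07) that rests on *Scd3*.

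The counts of *Scd3*, for which the family was chosen, are set beside those of other genes as a description only. Of 4885 genes with at least 1000 counts in AAV-GFP, only *Scd3* had 3 or fewer in AAV-*Wee1-AS*, and in the other direction it was 0 of 4685 genes. With limits of at least 100 counts against 0, the only other gene was *Cyp3a44*, a cytochrome P450 of the liver, with 330 counts in AAV-GFP and 0 in AAV-*Wee1-AS*. Among the 521 genes within 10% of the *Scd3* count in AAV-GFP, *Scd3* itself left out, the AAV-*Wee1-AS* library had between 191 and 6402 counts, with a median of 1047. Of 1432 genes with 1 transcript and at least 1000 counts in AAV-GFP, the one next to *Scd3* was *Rsc1a1*, with 1036 and 37 counts. At the level of single transcripts, 29 of 5060 transcripts with at least 1000 counts in AAV-GFP had 3 or fewer in AAV-*Wee1-AS*, and 39 of 4607 in the other direction. With at least 100 counts against 0, these were 851 of 17395 transcripts (4.89%) and 1209 of 17603 (6.87%).

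**Figure D3:**
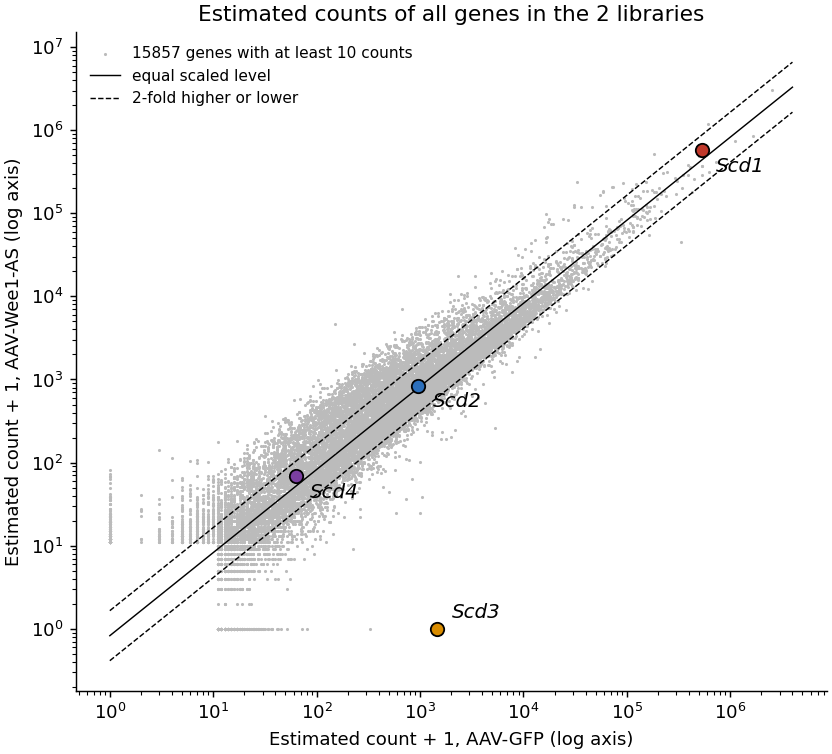
Estimated counts plus 1 of 15857 genes (grey points) in the AAV-GFP library (x axis) and the AAV-*Wee1-AS* library (y axis), both on log axes, with the 4 *Scd* paralogs in colour. The solid line marks equal scaled level and the dashed lines 2-fold. *Scd3* lies at 1464 counts in AAV-GFP and 0 in AAV-*Wee1-AS*, apart from the cloud, and *Scd1*, *Scd2* and *Scd4* lie between the dashed lines.

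The genes around the cluster were examined next. Within 500 kb on either side lie 32 other genes, of which 15 passed the count filter. Their log2 ratios ran from -0.52 to 1.69 with a median of 0.35, 10 were higher and 5 lower, and 2 were past 2-fold (*Chuk*, a kinase of NF-κB signalling, with 1395 and 3729 counts, and *Cutc*, with 255 and 429). *Pkd2l1*, which overlaps *Scd3*, had 0 counts in both libraries. The nearest expressed gene on the outer side of *Scd3*, *Bloc1s2*, had 250 counts in AAV-GFP and 298 in AAV-*Wee1-AS*. On the other side, *Scd2* is the nearest. Of these 15 genes, 2 were thus past 2-fold, beside 31.0% of all genes, and 0 had a ratio below 0.5, beside 8.43%.

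**Figure D4:**
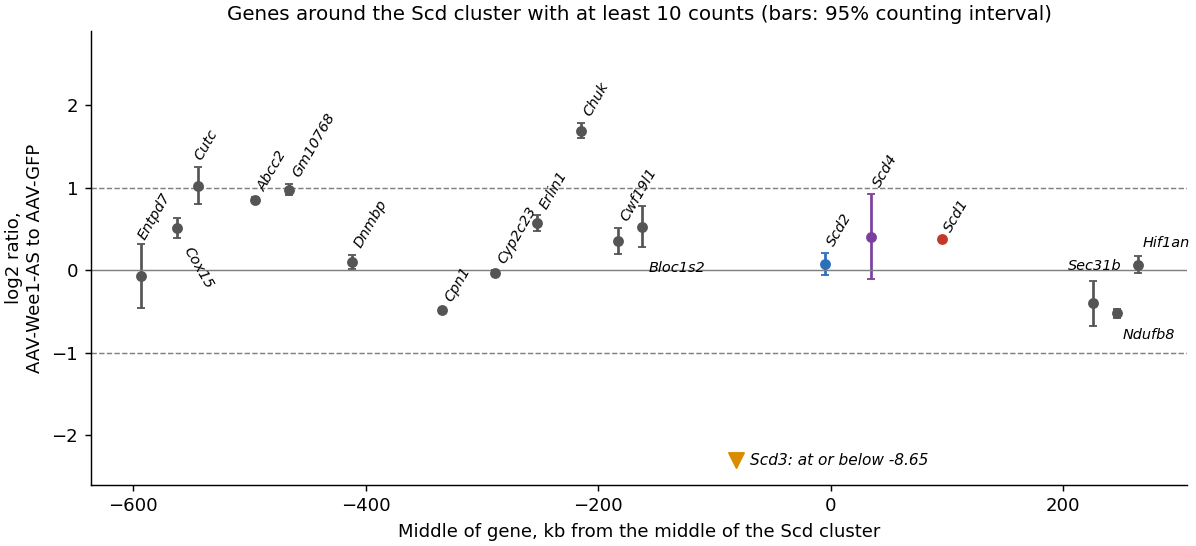
Log2 ratio (y axis, above 0 is higher in AAV-*Wee1-AS*) of the genes within 500 kb of the *Scd* cluster that passed the count filter, against the distance of the middle of the gene from the middle of the cluster in kb (x axis). Bars are 95% counting intervals, and dashed lines mark 2-fold. The triangle stands for *Scd3*, whose log2 ratio, -8.65 or less with its 0 counts set to a floor of 3, lies below the axis. The 15 other genes lie between -0.52 and 1.69.

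The partners of the desaturases in their pathway were then listed by role. Among the electron donors, 5 of 6 genes were measured, 2 were past 2-fold upwards and 0 downwards, beside 22.5% and 8.43% of all genes, and the median log2 ratio was 0.26. *Cyb5a*, the cytochrome b5 that hands electrons to the desaturase, had 34139 and 33717 counts in AAV-GFP and AAV-*Wee1-AS* (0.26). *Cyb5r3*, its main reductase, had 41676 and 26038 (-0.40, and 0.20 with the trends removed). *Cyb5b*, the outer mitochondrial form (1.08), and *Cyb5r4* (1.37) were past 2-fold, with 0.39 and 0.21 after the trends had been removed. The electron donors thus held no change past 2-fold that did not depend on the trends.

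The other lipid desaturases had a median of -0.26 over 5 of 6 measured genes, and 0.0074 with the trends removed. *Fads2*, the first desaturase of polyunsaturated fatty acid synthesis, had 126633 and 87472 counts (-0.26, and 0.23 with the trends removed). *Fads1*, which acts later in that pathway, had a log2 ratio of -0.01, and 0.26 with the trends removed. Only *Fads3*, at 147 and 53 counts, was past 2-fold (-1.17, and -0.86 with the trends removed), 1 of 5 genes beside 31.0% of all genes.

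Of the elongases and their partner enzymes, 12 of 13 were measured, 1 was past 2-fold upwards and 2 downwards, beside 31.0% of all genes in either direction. *Elovl6* makes stearoyl-CoA, the substrate of the desaturases, from palmitoyl-CoA. It had 1506 counts in AAV-GFP and 5785 in AAV-*Wee1-AS*, 4.65-fold higher (log2 ratio 2.22, interval 2.14 to 2.30), and stayed past 2-fold with the trends removed (1.02). *Elovl7*, an elongase of saturated long-chain fatty acids, had 70 and 17 counts (-1.66, and -2.85 with the trends removed). *Elovl1*, which makes very long saturated chains, had 4040 and 1651 (-1.01, and -0.56 with the trends removed). *Elovl5*, an elongase of polyunsaturated fatty acids, had 48847 and 37259 counts (-0.11, and -0.76 with the trends removed). *Hacd1*, a dehydratase of the elongation cycle, had 401 and 245 counts and was past 2-fold only with the trends removed (-0.43, then -1.06). The median of the list was 0.03, and -0.42 with the trends removed.

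Palmitate synthesis supplies the chain that is elongated and desaturated. All 10 genes were measured, with 0 past 2-fold upwards and 1 downwards, beside 22.5% and 8.43% of all genes, and a median of 0.15. *Fasn*, the fatty acid synthase, had 88364 counts in AAV-GFP and 45025 in AAV-*Wee1-AS*, a log2 ratio of -0.69 (interval -0.71 to -0.68), and -0.76 with the trends removed. *Acaca*, the acetyl-CoA carboxylase of the cytosol, had 7817 and 10594 (0.72, and -0.06 with the trends removed). *Thrsp*, a lipogenic protein that follows carbohydrate feeding, had 29695 and 38988 and was past 2-fold only with the trends removed (0.67, then 1.06). *Acly*, the ATP citrate lyase, had 22768 and 22529 (0.26). *Pnpla3*, a lipid droplet protein, was the gene past 2-fold as scaled, at 137 and 50 counts (-1.15, and -0.38 with the trends removed). *Scd1* and *Fasn*, both targets of SREBP-1c, thus had ratios of opposite sign as scaled, and of the same sign with the trends removed.

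The transcription factors and sterol sensors that act on *Scd* genes were all measured, 20 of 20, with a median of -0.07 (0.04 with the trends removed). *Srebf1*, which encodes SREBP-1, had 33483 counts in AAV-GFP and 18436 in AAV-*Wee1-AS* (-0.58, and -0.07 with the trends removed). *Nr1h3*, the liver X receptor alpha, had 8704 and 4724 (-0.60, and 0.12 with the trends removed), and *Mlxipl*, which encodes ChREBP, 5182 and 5012 (0.23). *Ppara* had 15638 and 22836 and was just past 2-fold only with the trends removed (0.82, then 1.003). *Insig1*, the sterol sensor that holds SREBP back, had 6677 and 8630 (0.65). The 3 genes past 2-fold as scaled, all upwards, were *Sp1* (1.48), *Mbtps2* (1.35) and *Nfyb* (1.14). With the trends removed, these were at 0.01, -0.15 and 0.03. They are 3 of 20 genes, beside 22.5% of all genes above 2. *Ppargc1b*, a coactivator of SREBP-1, had 275 and 374 counts and, like *Ppara*, was past 2-fold only with the trends removed (0.72, then 1.29).

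Oleoyl-CoA is then esterified into triglycerides and cholesterol esters. All 15 genes of this step were measured, 5 were higher and 10 lower in AAV-*Wee1-AS*, with a median of -0.44 that became -0.05 with the trends removed. *Dgat2*, which completes triglycerides from newly made fatty acids, had 48482 and 27422 counts (-0.54, and 0.12 with the trends removed). *Gpam*, the first acyltransferase of the pathway, had 16457 and 18479 (0.44, and -0.14 with the trends removed). *Mogat1*, a monoacylglycerol acyltransferase that is raised in fatty liver, had 1272 and 405, the only gene past 2-fold (-1.37, and -1.53 with the trends removed). That is 1 of 15 genes, beside 31.0% of all genes.

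**Figure D5:**
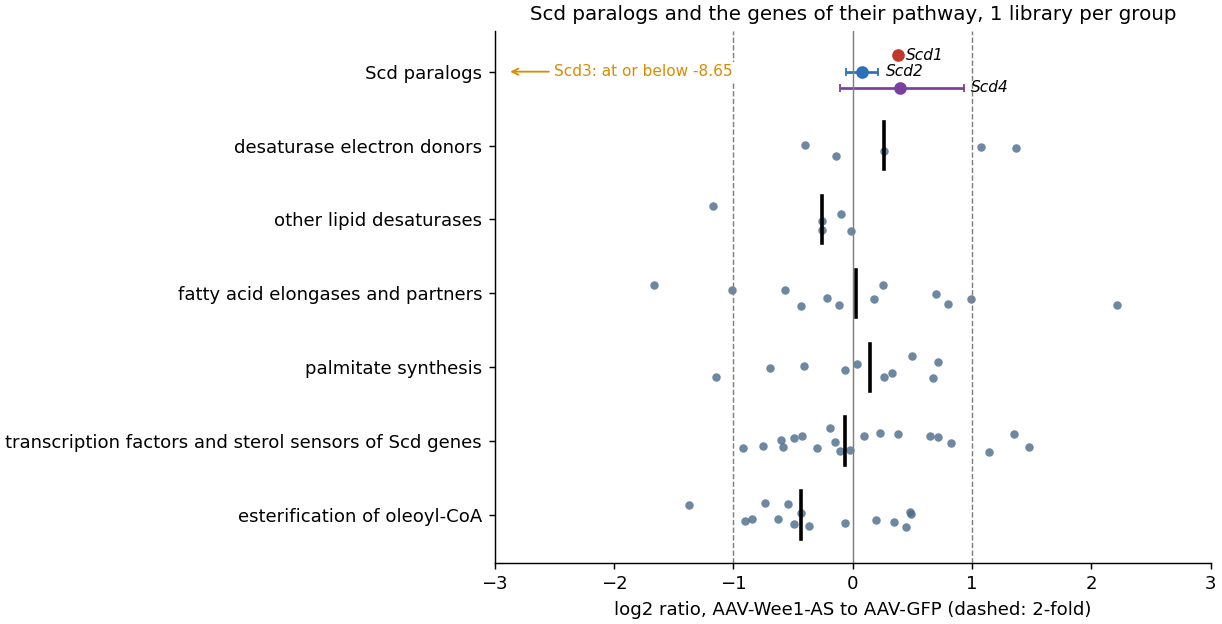
Log2 ratio (x axis, right of 0 is higher in AAV-*Wee1-AS*) of the *Scd* paralogs (top row, bars are 95% counting intervals) and of the measured genes of 6 pathway lists (points, spread vertically for view), with the median of each list as a black bar and 2-fold as dashed lines. *Scd3* lies off the axis, at or below -8.65 with its 0 counts set to a floor of 3. With the GC and length trends left in, as drawn, the medians lie between -0.44 and 0.26, and those of the elongases, the other desaturases and the transcription factors change sign when the trends are removed.

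Markers of the cells in which each paralog is best known were set beside these values. In bulk RNA, fewer cells of a type and less RNA per cell cannot be told apart. The 12 hepatocyte markers summed to 103334 TPM in AAV-GFP and 110651 in AAV-*Wee1-AS*, with *Alb* the most abundant, at 37459 and 53289 TPM. Both libraries were thus of liver. Of these markers, 6 were higher and 6 lower, with a median log2 ratio of -0.02 (0.14 with the trends removed). *Apob* (1.83) and *Cps1* (1.22) were past 2-fold, and with the trends removed they were at 0.08 and 0.43. That is 2 of 12 markers as scaled, beside 22.5% of all genes above 2. Of 12 markers of sebaceous gland and keratinocytes, the home of *Scd3*, *Krt5*, *Krt14*, *Mc5r*, *Awat1*, *Dsg3* and *Trp63* were at 0 in both libraries. *Krt79*, a keratin of sebaceous ducts, had 12 and 0 counts in AAV-GFP and AAV-*Wee1-AS*, *Fa2h* 9 and 0, *Sfn* 59 and 21, and *Awat2*, a wax synthase, 158 and 128. The list summed to 69.9 and 75.5 TPM, of which *Elovl3*, which hepatocytes also express, held 65.8 and 72.6. *Krt10* had 31 and 22 counts. Of the 12 markers, 6 were thus at 0 in both libraries and 6 had counts in AAV-GFP, of which *Krt79* and *Fa2h* were at 0 in AAV-*Wee1-AS*. Of the 4909 genes past 2-fold, 527 were at 3 or fewer counts in 1 library, whatever their count in the other. *Actc1* of the heart list, with 22 and 0, and *Krt79* were among them, whereas *Fa2h* lay under the count filter.

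Of 10 adipocyte markers, *Lep* and *Plin1* were at 0 in both libraries, *Adipoq* had 2 counts in each and *Retn* 0 and 4. *Car3* had 109071 and 124917 counts, *Cfd* 492 and 431, *Fabp4* 399 and 408, *Slc2a4* 112 and 94, and *Adrb3* 102 and 64. The list summed to 2237 and 2958 TPM, most of it from *Car3*. *Cidea*, a lipid droplet protein that fatty liver also makes, had 1784 counts in AAV-GFP and 192 in AAV-*Wee1-AS* (-2.93, and -2.26 with the trends removed). The 10 macrophage markers summed to 500.5 and 408 TPM, with *Cd5l* at 208 and 121 TPM the largest part. Of these markers, 6 were nevertheless higher in AAV-*Wee1-AS*, with a median log2 ratio of 0.11 (-0.01 with the trends removed). *Marco* (1.62), *Vsig4* (1.53) and *Timd4* (1.42) were past 2-fold, and with the trends removed they were at 2.22, 0.89 and 0.73. That is 3 of 10 markers as scaled, beside 22.5% of all genes above 2. Of 10 heart and skeletal muscle markers 2 were measured, and of 8 brain markers 5, with sums of 0.618 and 0.360 TPM and of 2.31 and 1.63 TPM. Markers of the tissues from which *Scd4* and *Scd2* are best known thus summed to under 3 TPM in both libraries. Whether any of these markers has a part in the *Scd* values was not tested.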

How the data were processed

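Liver poly-A RNA of 2 libraries (TruSeq stranded, paired reads of 100 bases, NovaSeq) was used. The authors deposited, per transcript of mm10, estimated counts (not normalized, whole numbers derived from FPKM and length), FPKM values (fragments per kilobase, scaled to the library) and TPM values (FPKM rescaled to an equal sum). The submitters' processing notes name Trimmomatic 0.38, HISAT2 2.1.0, SAMtools 1.9 and StringTie 2.1.3b, so reads shared by paralogs were divided by those tools. The depth was 55466182 and 48079335 estimated counts. GEO's design text mentions more liver samples than the 2 analysed here.

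Counts were summed per symbol and kept at 10 or more in at least 1 library. Libraries were scaled by TMM (edgeR 4.0.16, R 4.3.3), and log2 ratios were taken with a prior count of 2. Intervals were exact (Clopper-Pearson, 95%). Counts of 3 or fewer gave a bound only. The fold limits were 2 and 0.5. No test was possible with 1 library per group. GC content and length came from the longest GENCODE M21 transcript, and trends were removed by lowess (span 0.3, 5 cycles). Sequences and 100-base windows came from GENCODE M21 transcripts on GRCm38, the same assembly as mm10. Python 3.11.15, numpy 2.4.6, pandas 2.3.3, scipy 1.17.1, statsmodels 0.14.6, biopython 1.88 and matplotlib 3.10.9 were used. The ratios and their intervals were tested on simulated counts. The removal of the trends and the search of windows were not tested in this way. DESeq2 1.42.0 gave size factors for an alternative only.

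The members and the 6 pathway and 6 marker lists were chosen with earlier results of these data known. Genes were named if they were members, were past 2-fold or best known in a pathway list, were like *Scd3* in counts (at least 1000 against 3 or fewer), or lay within 500 kb of the cluster. *Cyp3a44*, *Rsc1a1* and the markers given with counts were named after their values were seen. Alternatives were 3 other scalings, a prior count of 0.5, 2 other count filters, the most abundant transcript per gene, TPM and FPKM with a pseudocount of 1, and removal of the trends.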

Additional observations from a re-analysis of the deposited data

How the results depend on the processing

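No paired analysis was possible because each group has 1 library. With 1 library per group, no library could be left out. The direction of *Scd3* was fixed by the choice of the family. With its 0 counts set to the floor of 3, its log2 bound lay between -8.79 (upper quartile) and -8.63. With the GC and length trends removed, the bound of *Scd3* was -8.76. With TPM or FPKM, where it is listed at 0, and with at least 10 counts in both libraries it has no value. The log2 ratio of *Scd1* was 0.31 with library totals, 0.25 with the upper quartile, 0.37 with no count filter, 0.37 with at least 10 counts in both libraries, 0.40 with the most abundant transcript per gene, 0.34 with TPM, 0.32 with FPKM and -0.24 with the trends removed. In the same order, that of the 4 paralogs summed was 0.30, 0.24, 0.36, 0.37, 0.40, 0.34, 0.31 and -0.24, and that of *Scd1* plus *Scd3* 0.31, 0.24, 0.36, 0.37, 0.40, 0.34, 0.31 and -0.24. With at least 10 counts in both libraries, *Scd3* is left out of both sums. *Scd2* was at -0.054 with the upper quartile and -0.28 with the trends removed. *Scd4* stayed between 0.09 and 0.42.

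Genes past 2-fold numbered 2046 with TPM, 1336 with FPKM and 2386 with the trends removed, against 4909. The share of these with a higher level was 72.8% as scaled, 64.3% with the upper quartile and 46.4% with the trends removed (1107 higher and 1279 lower). The upper quartile moved the median of all genes to -0.13 and library totals to -0.07, and both scalings shift all genes alike. The share of *Scd3* in *Scd1* plus *Scd3* was 0.382% by TPM. Genes like *Scd3* numbered 2 with limits of 100 and 0 counts. With the limits of 1000 and 3 counts, transcripts at the floor in 1 library numbered 68 over both directions. The median of the elongases was -0.040 with library totals, -0.10 with the upper quartile, -0.0064 with TPM, -0.031 with FPKM and -0.42 with the trends removed. With the trends removed, that of the other desaturases was 0.0074 and that of the transcription factors 0.043. The cause of these shifts was not tested. The depth limits *Scd4*, whose counts of 62 and 68 leave an interval from -0.11 to 0.93. The ratio of *Scd3* is known only as a bound.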
